A study of Macaca fascicularis with 8 samples.

Results

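The uterus library of the cynomolgus monkey scATAC-seq series was compared with the colon, heart and lung libraries of the same study. Its members were the 5770 uterus barcodes with at least 1000 counts in peaks, out of 78917 such barcodes in all 8 libraries, and these barcodes are called cells here. scATAC-seq reads out open chromatin cell by cell, since the enzyme Tn5 can only insert its adapters where DNA is accessible and a droplet barcode marks the fragments of each nucleus. All 4 libraries are labelled as normal tissue of an adult female cynomolgus monkey, with no treatment, and the study describes 1 female animal. Each organ was 1 library, so that no difference between organs could be tested, and organ and library cannot be told apart. The tissues were digested with enzymes, per the study's methods, and the sources used here do not say which layers of the uterine wall entered the library.

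The uterine wall is built of the myometrium, a thick coat of smooth muscle, and the endometrium, a lining of glandular epithelium in a hormone-responsive stroma. Blood vessels and immune cells run through both layers. Open chromatin marks promoters and enhancers, and distal open regions differ between cell types more than promoters do. In bulk sums over a library, a larger share of one cell type and a more open region in each cell cannot be told apart. The positions below are those of the deposited peaks, for which the sources used here name no genome build. The study names macFas6 for its scRNA-seq reads only. No gene annotation of that build was used, so the tissue label could not be checked against marker genes, and regions are named by position only.

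The uterus cells held 41721017 counts, with a median of 6465.5 counts per cell and quartiles of 3415.25 and 10096. The medians of the other 3 libraries lay between 6595 and 7446 counts per cell, in 5220 to 13117 cells. The uterus library had 248 barcodes (4.30% of its cells) in common with at least 1 of the other 3 libraries. The number that random draws of barcodes would share was not computed. Odd counts, in which 1 end of a fragment lies outside the peak, made up 24.3% of the entries in uterus against 10.2% in colon, 20.2% in heart and 14.99% in lung.

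The uterus library had the shortest peak list of the 4, and most of it was shared. Merging overlapping peaks of the 4 libraries gave 162675 regions, of which 23078 contained a peak of each library. The shared regions were 66.0% of the 34966 uterus regions, against 21.7% of the colon, 34.7% of the heart and 28.6% of the lung regions. As the shared regions are the same for each library, these percentages only reflect the length of its list. They held 88.3% of the uterus counts, against 61.5% in colon, 71.8% in heart and 70.7% in lung. Regions with a peak in uterus alone numbered 3876, or 11.1% of the uterus regions, and held 3.14% of the uterus counts. In the other 3 libraries, regions seen in a single organ made up 29.2% to 47.7% of the list.

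Within shared regions, the uterus peaks were shorter. The covered length, meaning the bases of a region that lie inside the peaks of one library, had a median of 846 bp in uterus, 1410 bp in colon, 1157 bp in heart and 1383 bp in lung. A sum of counts grows with the length that was called, and the peaks were called from the same signal, so that length and level are not independent and their parts in a difference cannot be told apart. The main values below are given with their covered length or beside the same count per covered kb. Accessibility is expressed as CPM, the counts of a region per 1000000 counts of the library in shared regions. The intervals are exact Poisson intervals at 95% on fragments and cover counting error only.

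Of the shared regions, 19522 had a mean of at least 10 CPM over the 4 libraries, and 65.7% of these lay within 2-fold between uterus and colon, 79.1% between uterus and heart and 78.4% between uterus and lung. Against colon, 4091 regions (21%) were at least 2-fold higher in uterus and 2602 (13.3%) at least 2-fold lower. Against heart, 1535 regions (7.86%) were higher and 2550 (13.1%) lower. Against lung, 1901 regions (9.74%) were higher and 2311 (11.8%) lower. The median log2 difference was close to 0 in all 3 comparisons, at -0.04 against colon, -0.03 against heart and -0.06 against lung. These splits depend on the scaling. When CPM is taken over the counts in all peaks of a library, the log2 differences all shift up by 0.52 against colon, 0.30 against heart and 0.32 against lung, and the share of higher regions among those past 2-fold rises from 61.1% to 80.97% against colon, from 37.6% to 57.6% against heart and from 45.1% to 62.4% against lung. Per covered kb, that share is 99.3%, 91.6% and 98.7%.

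Across these regions, the uterus values had a higher rank correlation with heart and lung than with colon. The rank correlation of CPM over the 19522 regions was 0.781 with heart, 0.786 with lung and 0.680 with colon. Among the 4624 regions whose covered lengths lay within 1.5-fold of each other in the 4 libraries, called length-matched here, the correlations were 0.937, 0.935 and 0.861. Heart likewise had a lower value with colon (0.661) than with lung (0.797), so a lower value with colon is not particular to uterus, while lung had about the same value with colon (0.796) as with heart. These are descriptions across regions of the same libraries, and regions are not replicates.

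Uterus stood at least 2-fold above each of the other 3 organs in 494 regions (2.53%), called uterus-high here, while 837 (4.29%) stood at least 2-fold below each. Scaled to the counts in all peaks, the balance turns, with 938 regions high and 582 low. The 494 regions had a median of 46.8 CPM in uterus, 7.83 CPM in colon, 11.9 CPM in heart and 10.5 CPM in lung. Of the 494, 101 were at least 4-fold above the next organ and 15 at least 8-fold. The next organ was heart for 256 of them, lung for 161 and colon for 77. Over all 19522 regions past the filter, the highest of the other 3 organs was heart for 6430, lung for 5106 and colon for 7986. Together the 494 regions held 3.19% of the uterus counts in shared regions, against 0.611% in colon, 0.926% in heart and 0.819% in lung. By the same rule, 647 regions stood above the rest in colon, 675 in heart and 324 in lung.

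The counts of high regions differed with the way length was treated. Uterus had the longest covered length of the 4 in 388 of its 494 high regions, against 755 of all 19522 regions past the filter. Among the length-matched regions, 59 (1.28%) were uterus-high, whereas 2 were high in colon, 0 in heart and 1 in lung. The median log2 difference over all length-matched regions was 0.22 against colon, 0.16 against heart and 0.17 against lung. Per covered kb, 374 regions (1.92%) were at least 2-fold above each other organ in uterus, against 11 in colon, 16 in heart and 4 in lung. Both as a sum and per covered kb, 192 regions (0.984%) passed in uterus, against 11, 13 and 4. The uterus peaks had a higher density on the whole, with a median of 33.3 CPM per covered kb over the regions past the filter, against 20.3 in colon, 26.9 in heart and 22.0 in lung, and the per-kb counts carry this offset. Keeping only matched lengths also can remove regions that are more open and for that have a longer peak, so these counts do not rank the organs.

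**Figure D1:**
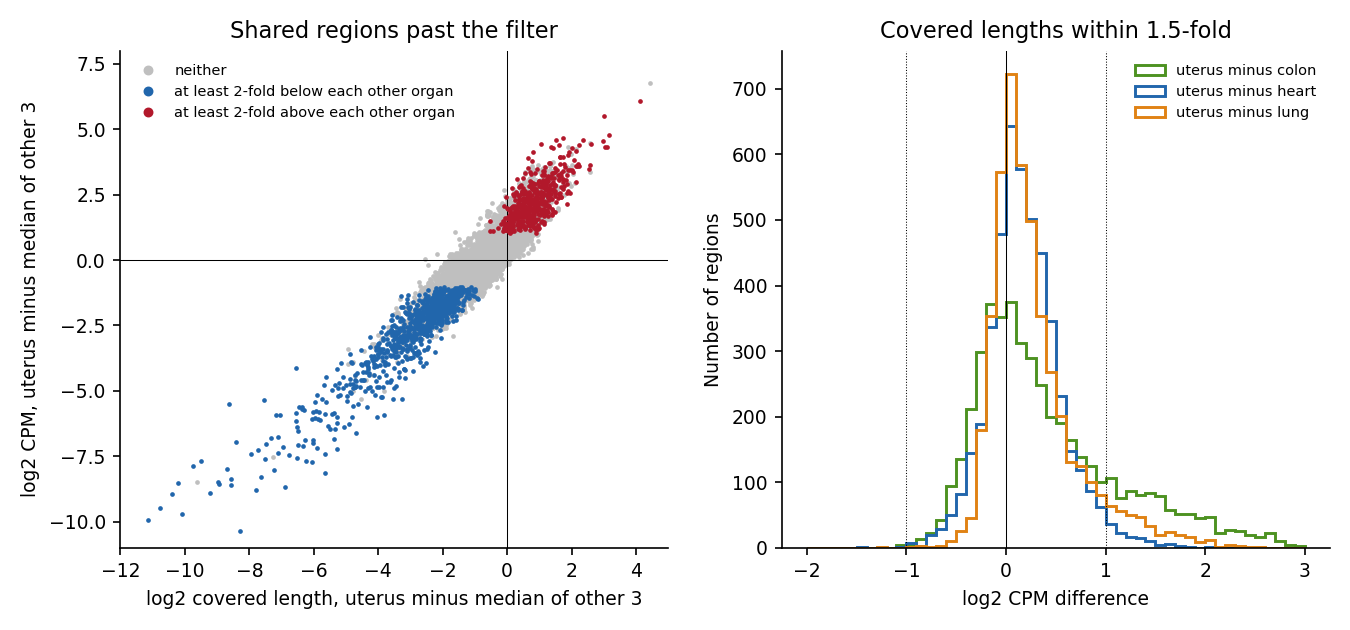
Left, each point is a shared region past the filter, with the log2 covered length in uterus minus the median of colon, heart and lung on the x axis and the log2 CPM difference on the y axis (uterus values under 0.05 CPM are drawn at 0.05); red points are the 494 uterus-high and blue points the 837 uterus-low regions, which lie at long and short uterus peaks. Right, histograms of the log2 CPM difference between uterus and each other organ over the 4624 length-matched regions, with dotted lines at 2-fold; the right tail is longer than the left, most of all against colon.

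The dependence on length was strong in both directions. Over the 19522 regions, the rank correlation between the log2 ratio of covered lengths and the log2 ratio of CPM was 0.84. Where the uterus peak was at least 4-fold shorter than the median of the other 3, the median log2 CPM difference was -2.17 in 1165 regions, of which 0 were uterus-high and 663 uterus-low. Where the uterus peak was at least 2-fold longer, the median was 2.82 in 274 regions, of which 174 were uterus-high and 0 uterus-low.

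The highest uterus excess was found at chr6:93499298-93501760. The value was 82.6 CPM (78.5 to 86.8) in uterus, 1.23 CPM in colon, 1.55 CPM in heart and 0.881 CPM in lung. The uterus value was the only high one of the 4, a log2 difference of 5.73 (5.21 to 6.26) from the next organ. The covered length was 2463 bp in uterus and 383, 142 and 110 bp in the others, and per covered kb the log2 difference was 1.62.

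The region chr6:146712352-146717718 had 175 CPM in uterus (169 to 181), 6.33 CPM in colon, 5.53 CPM in heart and 6.87 CPM in lung. Its log2 difference was 4.67, or 1.18 per covered kb, with 5367 bp covered in uterus and 385 to 693 bp elsewhere. A pair of neighbours on chromosome 9 followed. The region chr9:86516440-86518902 had 74.6 CPM in uterus against 3.46, 1.84 and 3.96 CPM in colon, heart and lung, a log2 difference of 4.23, or 1.37 per covered kb. The region chr9:86497039-86499717 had 66.5 CPM in uterus, 3.60 CPM in colon, 0.105 CPM in heart and 2.85 CPM in lung, a log2 difference of 4.21, or 1.58 per covered kb. The heart value rests on a called length of 21 bp, against 2679 bp in uterus.

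The region chr6:93321319-93323614 was the one of these 5 that kept most of its excess per covered kb. It had 207 CPM in uterus (200 to 214), 8.54 CPM in colon, 11.9 CPM in heart and 3.51 CPM in lung. The log2 difference from the next organ was 4.11, and 2.61 per covered kb, with 2296 bp covered in uterus and 642 to 1259 bp in the others.

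Among the length-matched regions, chr8:42394585-42395820 led. It had 59.0 CPM in uterus (55.5 to 62.6), 8.40 CPM in colon, 13.9 CPM in heart and 11.9 CPM in lung. The log2 difference was 2.09 (1.89 to 2.28), with 1236 bp covered in uterus and 835 to 982 bp in the others. The region chr6:93287352-93294928 had 163 CPM in uterus, 25.9 CPM in colon, 45.8 CPM in heart and 50.5 CPM in lung, a log2 difference of 1.69 (1.61 to 1.77). The other 8 of the leading 10 had log2 differences between 1.41 and 1.68. They were chr12:119181859-119182835, chr1:193631204-193632169, chr6:93509661-93511820, chr2:110106769-110107514, chr1:62093188-62094215, chr3:38702411-38706559, chr4:138226664-138227672 and chr1:193345468-193346792. Their uterus values ran from 23.4 to 105 CPM. All 10 stayed at least 2-fold above each other organ per covered kb, with log2 differences of 1.06 to 1.52. Under other settings 2 of them fell under 2-fold, chr2:110106769-110107514 at a log2 difference of 0.91 with cells thinned to 500 fragments and chr6:93287352-93294928 at 0.92 with cells counted in place of counts.

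At the 2-fold threshold itself, chr18:32458422-32458996 lay just inside with 23.6 CPM in uterus and 11.8 CPM in lung, the next organ, a log2 difference of 1.002 (0.81 to 1.195). The region chr4:15484896-15485941 lay just outside with 26.3 CPM in uterus and 13.2 CPM in heart.

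**Figure D2:**
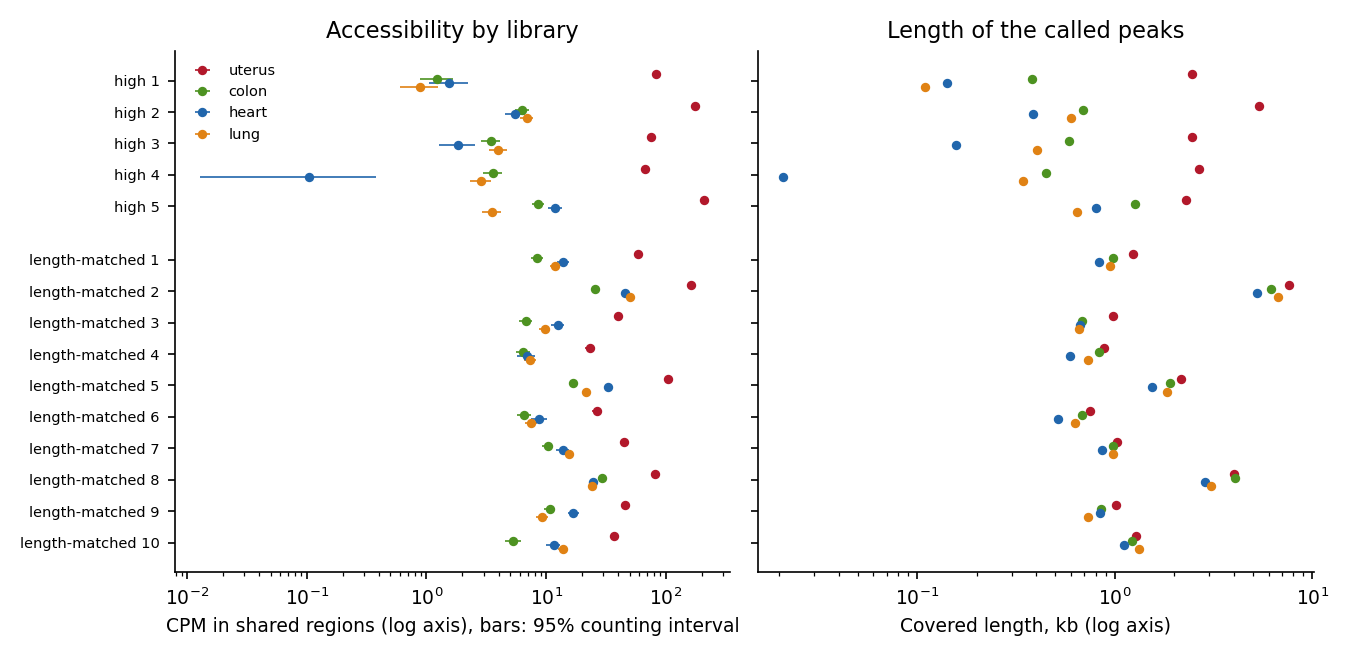
Left, CPM in the 4 libraries, on a log axis, for the 5 uterus-high regions with the highest log2 difference (high 1 to 5, in the order of the text) and the leading 10 length-matched regions; points are 1 library each and bars are 95% counting intervals. Right, the covered length of the same regions in kb on a log axis; uterus lies above the other organs in all 15 rows at left, while at right the uterus peaks are the longest in the upper 5 rows and the 4 libraries lie within 1.5-fold in the lower 10.

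A part of the uterus-high regions lay close to each other in the genome. Of the 494, 177 (35.8%) were within 100 kb of another. Of the 19028 other regions past the filter, 9.22% had a uterus-high region within that distance. Among the regions high in the other organs, 21.6% of those in colon, 25.3% in heart and 18.5% in lung lay within 100 kb of another of their list. Of the 192 regions that passed both as a sum and per covered kb, 36 (18.8%) did so, in lists of unequal size. The uterus-high regions formed 22 runs of at least 3 regions, and those passing on both scales 4. The lists of colon, heart and lung formed 13, 14 and 2 such runs, with up to 4, 6 and 9 regions. The uterus run with the most regions spanned chr6:93260991-93333721, and 10 of its 11 regions past the filter were uterus-high. Summed over these 10, uterus had 951 CPM, colon 112, heart 170 and lung 151 CPM, over covered lengths of 36.5 kb in uterus and 15.04 to 24.2 kb in the others. The single region of this run that missed the threshold, chr6:93274580-93286745, had 198 CPM in uterus and 101 CPM in lung. Within the run, 7 regions also passed per covered kb.

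A second run of 5 regions, chr6:93470017-93511820, lay nearby and held the region with the highest excess. Its sum was 421 CPM in uterus, 39.5 in colon, 73.7 in heart and 55.7 CPM in lung, and all 5 regions also passed per covered kb. A run of 3 on the same chromosome, chr6:146688011-146746747, reached 694 CPM in uterus against 36.5, 97.8 and 38.0 CPM, over 21.8 kb covered in uterus and 3.20 to 6.35 kb in the others, and 2 of the 3 passed per covered kb. The widest of these, chr6:146735163-146746747, had 369 CPM in uterus, 20.3 in colon, 39.0 in heart and 19.3 CPM in lung, over 11585 bp in uterus and 1845 to 3338 bp in the others. Other runs were found at chr10:82749207-82835928 with 5 regions, where uterus summed to 389 CPM and heart, the next organ, to 116 CPM, and at chr16:45722172-45794816 with 4 regions, where uterus summed to 457 CPM and heart to 108 CPM. The covered length was 11.6 kb in uterus and 5.71 to 6.09 kb elsewhere in the first, and 11.7 kb and 4.49 to 5.28 kb in the second. In each of these, 1 region passed per covered kb.

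By chromosome, the share of uterus-high regions ran from 1.151% on chromosome 5 to 4.197% on chromosome 3 among the autosomes. On chromosome X, 0 of 462 regions were uterus-high and 39 (8.44%) were at least 2-fold below each other organ. In the other organs, 12 of the 462 X regions stood above the rest in colon, 3 in heart and 2 in lung. Of the 19060 regions outside X, 635 (3.33%) did so in colon, 672 (3.53%) in heart and 322 (1.69%) in lung. In uterus, 494 (2.59%) of them were high. Heart and lung thus also had few high regions on X, while colon lay nearer to its share outside X. Chromosome X held 1.49% of the uterus counts in shared regions, against 2.06% in colon, 1.64% in heart and 1.80% in lung. The uterus peaks on X were also short, with a median of 712.5 bp against 1498.5, 1040 and 1316 bp. Per covered kb, the median log2 difference on X was above 0, at 0.47 against colon, 0.30 against heart and 0.48 against lung, where over all regions it was 0.71, 0.35 and 0.59.

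Regions at least 2-fold lower in uterus than in each other organ numbered 837 (4.29%), and all of them went with short uterus peaks. The uterus had the shortest covered length of the 4 in 837 of 837, with a median of 233 bp against 1762, 1210 and 1479 bp in colon, heart and lung. Short uterus peaks were common beyond this list. Uterus was the shortest in 14024 of all 19522 regions past the filter, with a median of 984 bp against 1608, 1313 and 1567.5 bp. In 189 of the 837 the uterus peak covered under 100 bp of the region, against 215 of all 19522. Among the length-matched regions 0 of 4624 passed, and per covered kb 17 (0.0871%) did. As a weaker region also tends to get a shorter peak, length matching leaves out such regions beforehand, and the 0 does not show that no region was less open in uterus. In 7 of the 837 the uterus had 0 counts, which were set to 3 for the fold, so that these do not rank as the lowest. Among the uterus-low regions with a uterus count, the 5 with the lowest log2 difference, chr13:61804856-61822762, chr3:72492707-72496150, chr13:87820891-87823346, chr12:59880378-59882464 and chr13:101204507-101205659, had 1 or 2 uterus counts in called lengths of 3 to 12 bp. At the first of these, uterus had 0.0271 CPM (2.67e-05 to 0.254) over 11 bp, colon 33.6 CPM over 2405 bp, heart 65.3 CPM over 3446 bp and lung 215 CPM over 17907 bp, so that counts per region compare different stretches of DNA. At the threshold, chr3:39600886-39602923 lay just inside with 7.92 CPM in uterus and 15.9 CPM in lung, over 336 bp in uterus and 1199 bp in lung, and chr1:108911496-108912485 lay just outside with 9.39 CPM in uterus and 18.8 CPM in lung.

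Among the length-matched regions, the lowest was chr16:31464724-31466906. It had 43.0 CPM in uterus (40.05 to 46.1), 65.6 CPM in colon, 61.4 CPM in heart and 61.1 CPM in lung, a log2 difference of -0.51 from the lowest other organ. The other 9 of the lowest 10 had log2 differences between -0.50 and -0.36. Of these 10, 6 turn to values above 0 when scaled to the counts in all peaks, and 5 per covered kb.

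Among the uterus cells, most shared regions were seen in a small share. At their own depth, the median shared region had a count in 8.91% of the uterus cells, with quartiles of 4.49% and 16.05%, and 79 regions had a count in over 50% of them. The median uterus cell had a count in 2493 of the 23078 shared regions. The uterus-high regions had a count in a median of 12.6% of uterus cells, between 4.71% and 57.2%. The median was 10.8% over all regions past the filter and 11.2% over those neither high nor low. When each cell was thinned to 500 fragments, which left out 33 uterus cells, the uterus-high regions were found in a median of 2.27% of uterus cells, 0.504% of colon, 0.694% of heart and 0.567% of lung cells. These regions were chosen for higher counts in the same cells, so a higher share in uterus follows from the rule. For the 59 length-matched uterus-high regions, the medians were 1.87% in uterus, 0.557% in colon, 0.912% in heart and 0.690% in lung. Thinned to that depth, all regions past the filter had medians of 1.76% in uterus, 1.78% in colon, 1.88% in heart and 1.83% in lung.

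The region found in the most uterus cells, chr13:70949201-70961373, had a count in 93.7% of them. Its level was 4734 CPM in uterus, 4837 in heart, 2320 in lung and 1600 CPM in colon, at covered lengths of 11104 to 12173 bp. Between uterus clusters it ran from 1786 to 9832 CPM, and these 2 clusters had the highest and the lowest median depth, at 12184 and 2609 counts per cell. The other clusters lay between 4630 and 6761 CPM. Clusters 4 and 9, with median depths of 3191 and 3069 counts, were at 4749 and 6761 CPM. The next regions by share of cells were chr19:1003824-1049291 (80.2%, 1534 CPM), chr19:50413671-50439772 (74.5%, 965 CPM), chr7:168282951-168312196 (71.8%, 889 CPM) and chr16:8126948-8153982 (70.5%, 743 CPM). None of these 5 was uterus-high, and 4 of them covered over 16 kb in uterus.

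To describe how evenly a region was spread, the number of uterus cells with a count was divided by the number expected if each fragment had the same chance to fall in the region in every cell. A value of 1 means an even spread at the given depth, and lower values mean that the fragments lay in fewer cells. The median ratio was 0.94 over the regions past the filter and 0.88 over the uterus-high regions. In the other libraries the same uterus-high regions had medians of 0.93 in colon, 0.94 in heart and 0.94 in lung, at a lower level of counts. The most uneven regions of the uterus were chr19:22765478-22772461 (ratio 0.62, in 14.4% of cells) and chr6:146735163-146746747 (0.65, in 40.2% of cells), which are both uterus-high. In colon, heart and lung, the ratios were 0.81, 0.78 and 0.75 at the first of these and 0.68, 0.88 and 0.90 at the second. The region chr12:107426014-107431268 (0.65, in 17.6% of cells) had 100 CPM in uterus and 70.6 CPM in heart, where its ratio was 0.62, but 0.925 CPM in colon and 0.0964 CPM in lung, where 209 and 20 bp were covered. The region chr16:74207222-74207807 (0.66, in 4.003% of cells) was at 18.9 CPM in uterus and 19.7 CPM in lung, and uneven in all 4 libraries, with ratios of 0.56 to 0.70.

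**Figure D3:**
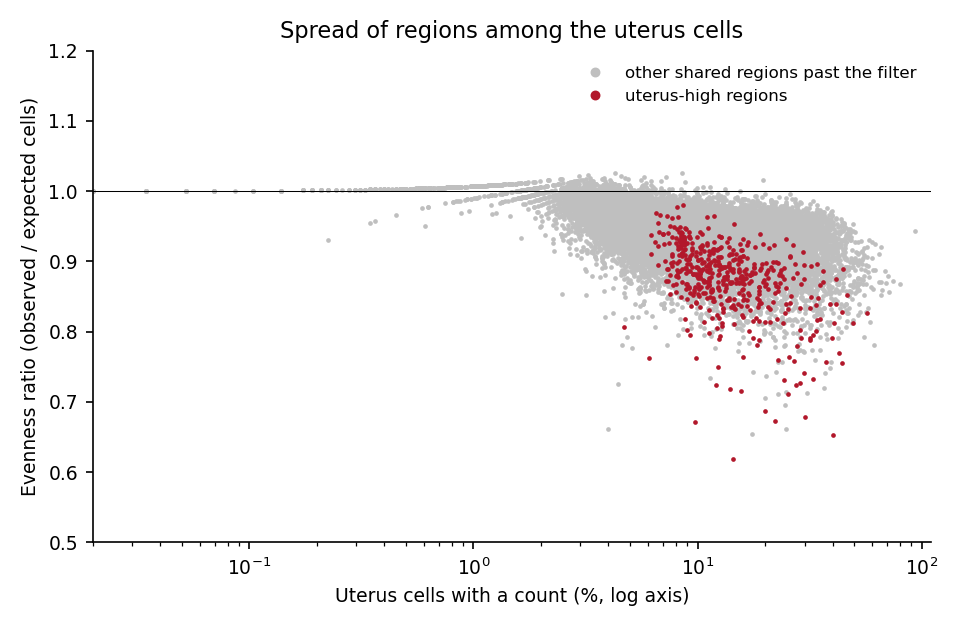
Each point is a shared region past the filter, with the share of the 5770 uterus cells that have a count in it on a log x axis and the evenness ratio, observed over expected number of cells, on the y axis; the line at 1 marks an even spread. The uterus-high regions (red) have a median of 0.88 and lie toward the lower edge of the other regions (grey).

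The cells of each library were also split at random into 2 sets of about equal size, and the regions chosen in the first set were examined in the other. The first set gave 516 regions, of which 472 were in the list from all cells. In the held-out cells, 457 of the 516 stood at least 2-fold above each other organ, and 516 of 516 stood above 0, with a median log2 difference of 1.401 and a lowest one of 0.41. As both sets come from the same 4 libraries, this describes the counting error and not the spread between animals or libraries.

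For each held-out cell, the share of its counts in shared regions that fell in the 516 regions was then taken as a score. The median score was 3.35% in uterus, with quartiles of 2.62% and 4.14%, against 0.530% in colon, 0.911% in heart and 0.809% in lung. Counts of a cell are taken inside the peaks of its own library, and the score was not corrected for their length. Over the 494 uterus-high regions, the median covered length was 1481 bp in uterus, 937 bp in colon, 727.5 bp in heart and 821.5 bp in lung. Of the 2832 held-out uterus cells, 78.5% (exact binomial interval 76.9 to 80.0) lay above 2.49%, the 99th percentile of the pooled cells of the other organs. The interval treats the cells of 1 library as independent draws and holds the chosen regions and the limit fixed. Another random split gave 80.3%, outside that interval, so it does not cover the choice of the split. Above that value lay 2.06% of the colon, 0.377% of the heart and 0.242% of the lung cells. With every cell thinned to 500 fragments, the share of uterus cells above the corresponding limit was 59.9%.

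**Figure D4:**
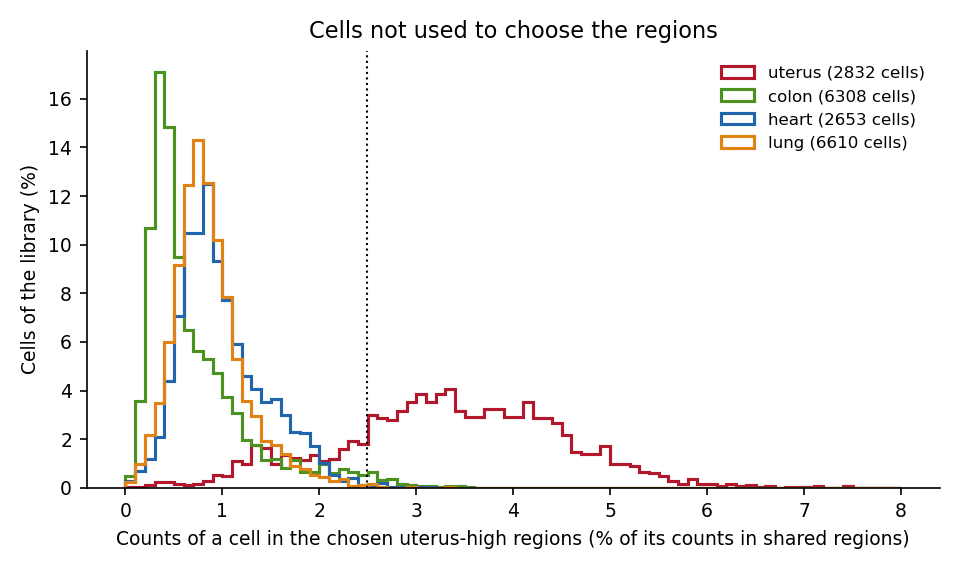
Histograms of the score per held-out cell, the percent of its counts in shared regions that fall in the 516 regions chosen in the other set of cells, with the percent of the library's cells on the y axis; the dotted line is the 99th percentile of the colon, heart and lung cells together (2.49%). The uterus cells peak between 3% and 4% and have a shoulder of cells below 2%, where the other organs lie. Counts of a cell are taken inside the peaks of its own library, without correction for their length.

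The uterus cells were clustered without the uterus-high regions, which gave 10 clusters, numbered by size. Clusters were left unnamed because no gene annotation was used and only the EGFL7 and JCHAIN windows, given below, could be read. The share of counts in uterus-high regions differed between them, from 1.18% in cluster 10 (148 cells) to 4.06% in cluster 1 (1012 cells). Clusters 6 (540 cells, 1.71%) and 9 (207 cells, 1.64%) were also low, clusters 3 (777 cells, 2.86%) and 4 (753 cells, 2.95%) in between, and clusters 2, 5, 7 and 8 lay between 3.68% and 3.99%. The median depth of the clusters ran from 2609 to 12184 counts per cell without following this order, with 8803 counts in cluster 1, 8806 in cluster 6 and 6306 in cluster 10. Clusters with a similar share differed in depth. Cluster 2 had 2609 counts, cluster 3 had 12184 against 3191 in cluster 4, and cluster 9 had 3069.

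Different uterus-high regions led in different clusters. The highest CPM was found in cluster 1, 2, 5, 7 or 8 for 329 of the 494 regions, in cluster 3 or 4 for 155, and in cluster 6, 9 or 10 for 10. These groups hold 58.0%, 26.5% and 15.5% of the uterus cells and follow the share of counts in uterus-high regions given above. The same count over all regions past the filter was not made, so these numbers cannot be set against those of other regions. Smaller clusters have a larger counting error. Cluster 8, with 254 cells, was the highest for 105 regions, while the smaller clusters 9 (207 cells) and 10 (148 cells) were the highest for 3 and 0. A total of 110 regions were above the highest other organ in every cluster. By cluster, that number ran from 222 regions in cluster 10 to 489 in cluster 2. The regions were chosen for their excess in these same cells, so these numbers describe the list and support nothing.

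The runs on chromosome 6 differed between clusters. The run of 10 was at 1983 CPM in cluster 2 and 1455 CPM in cluster 1, at 494 and 546 CPM in clusters 3 and 4, at 348 CPM in cluster 6 and at 405 CPM in cluster 10, but at 1060 CPM in cluster 9. Clusters 6 and 9 had median depths of 8806 and 3069 counts per cell. The run at chr6:146688011-146746747 was at 1556 CPM in cluster 1 and 1248 CPM in cluster 2, but at 199 and 153 CPM in clusters 3 and 4 and 139 CPM in cluster 10. A different order was seen at the leading length-matched region, chr8:42394585-42395820, which was highest in cluster 3 at 118 CPM and lowest in cluster 7 at 23.2 CPM. The run of 3 at chr14:20794614-20913565 was likewise highest in clusters 3 and 4, at 187 and 177 CPM, against 93.7 CPM in cluster 1. The run at chr16:45722172-45794816 was highest in cluster 5 at 876 CPM and lowest in cluster 9 at 65.3 CPM, below the 108 CPM of heart.

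**Figure D5:**
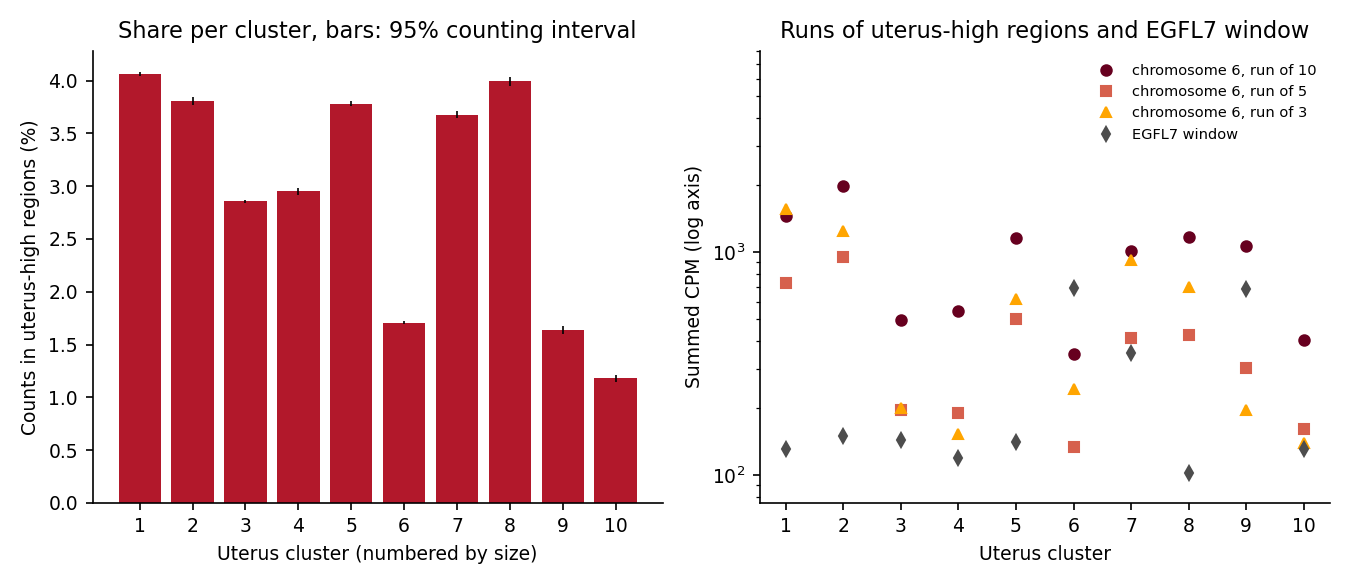
Left, the percent of counts in uterus-high regions for the 10 uterus clusters, numbered by size, with 95% counting intervals; clusters 6, 9 and 10 lie below 2%. Right, the summed CPM, on a log axis, of 3 runs of uterus-high regions on chromosome 6 and of the shared regions of the EGFL7 window in the same clusters; the EGFL7 window is highest in clusters 6 and 9, where the share of uterus-high counts is low.

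A pair of gene windows printed by the study allowed a look at named loci. Only regions with a peak in all 4 libraries were summed there, so peaks of the windows found in fewer libraries are left out. No annotation was used to assign the summed regions to the genes. EGFL7 encodes a factor secreted by endothelial cells. The 3 shared regions in its window summed to 236 CPM in uterus (229 to 243), 149 CPM in colon, 623 CPM in heart and 624 CPM in lung. Uterus thus lay below heart and lung and above colon, at covered lengths of 11.03 kb in uterus, 14.1 kb in colon, 29.2 kb in heart and 32.9 kb in lung. Per covered kb this order did not hold, with 21.4 CPM in uterus, 10.6 in colon, 21.3 in heart and 18.96 CPM in lung. Over all regions past the filter, uterus was also higher per covered kb. The median log2 difference there was 0.71 against colon, 0.35 against heart and 0.59 against lung. Within uterus, the window was at 691 CPM in cluster 6 and 682 CPM in cluster 9, at 352 CPM in cluster 7, and between 102 and 150 CPM in the other 7 clusters. Most of the signal came from chr15:1785716-1810366, which was among the 5 most uneven regions of the uterus (ratio 0.66). Its ratio was 0.68 in lung, 0.80 in colon and 0.81 in heart. One locus is too little to name a cluster.

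JCHAIN encodes the chain that joins the units of polymeric IgA and IgM in plasma cells. The 2 shared regions of its window summed to 125 CPM in uterus (120 to 130), 187 CPM in colon, 147 CPM in heart and 146 CPM in lung. Uterus was the lowest of the 4 in this sum, over 3.08 kb covered against 5.20, 3.79 and 4.02 kb. As peaks found in fewer libraries are left out, the sum does not give the order of the organs over the whole window. Per covered kb the direction turned, with 40.7 CPM in uterus, 36.01 in colon, 38.7 in heart and 36.3 CPM in lung. This turn is not particular to the window, as uterus was higher per covered kb over all regions past the filter, by the medians given for the EGFL7 window. Among the uterus clusters, the window ran from 86.1 CPM in cluster 7 to 166 CPM in cluster 2, a narrower range than that of the EGFL7 window.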

How the data were processed

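scATAC-seq was measured in 8 libraries, of which uterus, colon, heart and lung (1 library each) were used. The authors processed reads with Cell Ranger ATAC 1.2.0, per the submitters' processing notes, called the peaks of every library on its own, and deposited raw counts, namely how many cut ends of a barcode lie in a peak. These counts are not normalized and are mostly even, as a fragment usually has both of its ends in 1 peak. A cell number was set by hand for lung and colon and left at the default for heart and uterus, per the study's methods. The deposited lung and colon barcodes, 13117 and 12404, are more than the number given there. Doublet removal, batch correction and cell typing came later and are not part of the deposited counts.

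Barcodes with at least 1000 counts were kept, which left 89.1% of the uterus barcodes, 91.7% of those of heart and 100% of those of colon and lung. Peaks overlapping by at least 1 bp were merged, and counts were summed per region and divided by the counts in shared regions. Regions with a mean under 10 CPM were left out. For fold changes a count of 0 was set to 3. Intervals were computed on counts divided by 2 because counts come in pairs. Doublets were kept in the main values. As an alternative, 332 uterus cells were removed by scores against simulated doublets. Clusters came from binarized peaks seen in at least 1% of cells, with TF-IDF weights, reduced to 30 components without those correlated with depth above 0.75, and grouped by the Leiden method on 20 nearest neighbours at resolution 0.8. Tools were Python 3.11.15, numpy 2.4.6, scipy 1.17.1, pandas 2.3.3, scikit-learn 1.9.0, igraph 0.11.9 and leidenalg 0.10.2. The fold rule and the evenness ratio were tested on simulated data. Of 200 regions raised 3-fold or 4-fold in uterus, all passed, and of 19322 unchanged regions 0 did, which covers counting error only, as the simulation holds no differences in peak length or library. The ratio was 1.00 for evenly open regions and 0.80 for regions open in 25% of the cells.

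Regions were named by rule, with all members and lists chosen with earlier results of these data known. Named were the 5 highest and 5 lowest (the latter with a uterus count, since a count of 0 set to 3 ranks above 1 or 2), the 10 highest and 10 lowest among length-matched regions, those next to the threshold, the 5 seen in the most cells, the 5 most uneven, and those in the EGFL7 and JCHAIN windows. Runs were described in addition, chosen after their values were seen. Gene lists at gene starts, cell type markers and sequence motifs needed an annotation or genome of the build of the peaks and were not run. A gene table of a different assembly was not used. Alternatives changed the scaling, the filter, the merging rule, the barcode threshold, the doublets, the depth, the seed and the resolution.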

Additional observations from a re-analysis of the deposited data

How the results depend on the processing

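With 1 library per organ no replicate could be left out. No paired analysis was possible because each organ is 1 library and no test was made. The counts of regions past 2-fold stayed within 1.5 times of their values with median-ratio size factors, an overlap of 100 bp, other barcode thresholds, the top 5% of barcodes left out, likely doublets removed, cells counted in place of counts, cells thinned to 500 fragments, and 1 peak per library. Scaled to the counts in all peaks, 938 regions were uterus-high in place of 494 and 582 uterus-low in place of 837. Per covered kb, 17 regions were uterus-low in place of 837, and 879 lay past 2-fold against heart in place of 4085. Without a filter, 749 were high and 1452 low. With a mean of at least 50 CPM, 54 were high and 94 low, and 1105, 446 and 415 lay past 2-fold against colon, heart and lung, of 7244 regions compared. With covered lengths within 1.5-fold, 59 were high and 0 low, and 935, 118 and 362 lay past 2-fold. The 2 alternatives that follow were added after seeing the data. With at least 200 bp covered in each library, 471 were low. Both as a sum and per covered kb, 192 were high and 17 low, and 3937, 679 and 1660 lay past 2-fold.

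Counting cells in place of counts, the share of higher regions among those past 2-fold rises to 71.6% against colon and 56.1% against lung, and with thinned cells the latter is 52.3%, against 45.1%. The median share of uterus cells with a count, 8.91%, was 1.43% with thinned cells, 9.83% with at least 2000 counts and 8.16% without the top 5% of barcodes. The share of held-out cells above the limit was 80.3% with another seed, 59.9% with thinned cells and 64.5% with regions chosen at 4-fold. At resolution 1.2 there were 14 clusters in place of 9 from all peaks, with up to 4.32% of counts in uterus-high regions.

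Of the length-matched lowest regions, the log2 difference turned above 0, scaled to the counts in all peaks, at chr6:140642417-140646639 (0.0215), chr2:155182750-155184421 (0.0494), chr2:97122102-97123992 (0.0998), chr8:66539918-66541483 (0.00182), chrX:22519558-22521478 (0.121) and chr11:1672139-1673791 (0.163). Per covered kb it was 0.0828, 0.0856, 0.129, 0.0779 and 0.209 at the last 5 of these. Of the 5 low regions named without length matching, chr3:72492707-72496150 was at 0.294 per covered kb. With thinned cells, the length-matched region chr2:115826687-115829094 was at 0.0289. The cause was not tested. The tests on gene starts and motifs were not run.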

Other observations

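Odd counts were more frequent in uterus than in the other 3 libraries in each of the 4 peak width classes compared, up to 5000 bp. In peaks of up to 500 bp they made up 61.4% of the entries in uterus, against 44.1% in colon, 55.4% in heart and 52.6% in lung, and in peaks of 2000 to 5000 bp 9.15% against 2.84%, 6.65% and 4.38%. Over the uterus cells at 500 fragments, the share of counts in uterus-high regions on odd-numbered chromosomes and that on even-numbered chromosomes had a rank correlation of 0.353 (5737 cells, which share 1 library), against 0.352 in colon, 0.223 in heart and 0.179 in lung cells.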
